A study of Mus musculus with 17 samples.

Results

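Plasma cell-free RNA (cfRNA) holds short noncoding RNAs of the nucleus beside the RNAs of blood cells, and 11 genes for such RNAs could be followed in the plasma of space-flown mice. They are the genes named as C/D box small nucleolar RNAs (Snord), H/ACA box small nucleolar RNAs (Snora), small Cajal body RNAs (Scarna) and U small nuclear RNAs (Rnu), and they were selected on the RPKM (read number scaled to the length of the gene and to the mapped reads of the library) being above 0 in at least 1 of 17 libraries. Of the 49585 genes listed, 171 carry such a name, and 11 of these passed: Snord118, Snord104 and Snord13, Snora17, Scarna2, Scarna13 and Scarna17, and Rnu1b1, Rnu1b2, Rnu3a_1 and Rnu12. The other 160 were listed at 0 in every library. The choice by name leaves out rows under other names. By annotated type, 111 small nuclear RNA rows were above 0, and the 3 among the 11 held 1.29% of their summed mean RPKM. Of 31 small nucleolar RNA rows above 0, the 5 among the 11 held 95.4%. The smallest of the 11 by mean RPKM was Scarna13, with a highest value of 9.11 and a mean of 3.25 over the 17 libraries. The largest was Snord118, with a mean of 330.3, or 210.1 without MG 6, the library where it was highest. Rnu1b1 followed with 200.3, or 195.6 without MG 6.

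The libraries came from plasma of wild type C57BL/6J mice aged 13 weeks, 1 mouse a library, kept in the Mouse Habitat Unit on the MHU-1 mission. In the artificial gravity group (AG, 6 libraries) the mice lived on the International Space Station under artificial 1-G. The microgravity group (MG, 6 libraries) lived on the station without it, and the ground control group (GC, 5 libraries) stayed on Earth. MG against AG concerns gravity with the rest of the flight alike, and AG or MG against GC concerns flight against ground. Each group is 1 set of animals from 1 mission.

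Small nucleolar RNAs are short RNAs that sit in protein particles of the nucleolus. C/D box RNAs pair with ribosomal RNA (rRNA) and guide ribose methylation, H/ACA box RNAs guide the change of uridine to pseudouridine, and a few of each, such as U3, U8 and U13, act instead in cutting or other steps of rRNA maturation. Small Cajal body RNAs carry the same boxes and modify spliceosomal RNAs in the Cajal body, and the U small nuclear RNAs are the RNA cores of the spliceosome. In vertebrates most guide RNAs are cut out of introns of host genes, whereas U3, U8, U13 and the spliceosomal RNAs have promoters of their own.

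Of the RNAs, 6 sequences are shown here, to show where the named boxes and sites lie in them and because 2 of the genes, which share 1 sequence, cannot be told apart. The sequences are annotated transcripts of GENCODE M21 on mouse build GRCm38, written as DNA. Capitals mark the C box (TGATGA) and the last D box (CTGA) in the C/D box RNAs, the closing ACA in Snora17, the splice site pairing stretch (ACTTACCTG) and the Sm protein site (ATTTNTG) in U1, and the Sm site in U12. Only the strand of the RNA itself was searched.
Snord118 (U8), chr11:69073427-69073561, plus strand: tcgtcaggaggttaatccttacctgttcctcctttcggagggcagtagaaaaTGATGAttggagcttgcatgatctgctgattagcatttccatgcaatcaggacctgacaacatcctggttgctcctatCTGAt
Rnu3a (U3), chr10:40258467-40258679, plus strand: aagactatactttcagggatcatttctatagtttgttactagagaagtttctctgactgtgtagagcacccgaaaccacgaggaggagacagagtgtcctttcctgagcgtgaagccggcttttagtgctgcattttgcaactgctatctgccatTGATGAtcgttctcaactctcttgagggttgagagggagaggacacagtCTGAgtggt
Snord104, chr11:106500993-106501062, plus strand: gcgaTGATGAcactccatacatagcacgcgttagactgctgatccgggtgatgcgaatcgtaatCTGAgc
Snora17, chr2:26639190-26639321, minus strand: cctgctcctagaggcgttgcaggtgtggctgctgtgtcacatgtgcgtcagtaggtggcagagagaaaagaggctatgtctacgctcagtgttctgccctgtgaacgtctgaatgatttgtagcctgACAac
Rnu1b1 (U1), chr3:96359953-96360117, minus strand, and Rnu1b2 (U1), chr3:96374021-96374185, plus strand: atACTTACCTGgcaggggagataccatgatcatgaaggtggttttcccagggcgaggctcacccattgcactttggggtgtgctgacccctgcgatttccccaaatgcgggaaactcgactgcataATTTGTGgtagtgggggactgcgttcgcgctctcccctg
Rnu12 (U12), chr15:83149644-83149794, plus strand: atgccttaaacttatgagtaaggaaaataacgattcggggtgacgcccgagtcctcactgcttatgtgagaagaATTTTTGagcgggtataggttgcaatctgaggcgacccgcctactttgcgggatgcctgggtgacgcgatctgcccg
The annotated transcripts of Rnu1b1 and Rnu1b2 are identical over all 165 bases. Rnu3a carries a C box and a D box, as U3 is a C/D box RNA in spite of the Rnu in its name. A C box together with a D box within 15 bases of the 3′ end was found in 71 of 99 annotated Snord transcripts (71.7%), and a closing ACA within 6 bases of the end in 39 of 42 Snora transcripts (92.9%). The Sm site letters occurred in 283 of 1383 transcripts annotated as small nuclear RNA (20.5%), and the splice site pairing stretch within 3 bases of the start in 55 of them (3.98%). Scarna2 (chr3:108554338-108554751, minus strand) ends in a D box and Scarna13 (chr12:105031075-105031349, minus strand) in an ACA 3 bases from its end.

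In the deposited tables the count column read 0 for all 11 genes in all libraries although RPKM was above 0. The same held for 579 genes in all. Multiplying RPKM by the gene's length and by the mapped reads that the other genes imply gave a whole number of reads, within 0.02, for every value of the 11 genes, and 9554 reads in total. The mapped reads so implied ran from 1596032 to 9796884 a library, and the 11 genes held 175 to 2175 reads of a library. Of their 187 values, 178 were above 0. Such small numbers set the precision: 1 read of Snord13 was worth between 0.981 and 6.02 RPKM according to the library, and where no read was seen up to 3 reads are allowed by counting error alone. Reads were not marked with molecular identifiers, so intervals and floors cover counting error only. Levels of plasma RNA do not separate fewer releasing cells from less RNA per cell.

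The genes above 0, all but Scarna13, share a place in the genome. Place was not itself a criterion of the choice, but whether an RPKM above 0 depended on it was not tested. Of the 171 genes with such names, 16 lie outside any longer gene (over 500 nt) of the annotation, and 10 of these 16 were above 0. The remaining 6 of the 16, listed at 0, were Snora43, Rnu6-ps2, Rnu11, Rnu3a_2, Rnu2-10 and Rnu6. Inside a longer gene of the same strand, 85 genes lie only in introns and 65 overlap an exon of it, and of these 150 only Scarna13, in an intron of Snhg10, was above 0. The 5 that overlap a gene of the opposite strand alone were at 0. Rnu3a_1 and Rnu3a_2 are rows for 1 locus, of which only the first held values. Being listed at 0 is not proof of absence in a table whose count column is 0 for genes with reads, and the part played by the authors' rule for reads inside host genes was not tested.

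**Figure D1:**
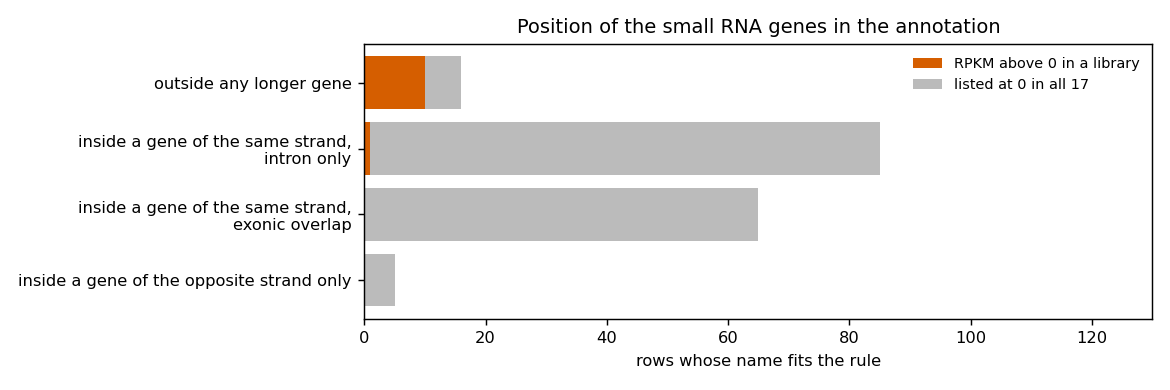
Number of genes named Snord, Snora, Scarna or Rnu (x axis) by where they lie relative to genes longer than 500 nt, split into those with RPKM above 0 in a library (orange) and those listed at 0 in all 17 (grey). Outside longer genes 10 of 16 were above 0, against 1 of 85 in introns and 0 of 65 with exonic overlap.

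Whole families were at 0. The 19 Snord genes of the imprinted cluster of chromosome 7 (Snord64, Snord107 and Snord116), the 4 of the Gas5 cluster, the 4 of the Rpl13a cluster and both Snora73 genes had no value above 0. Among RNAs listed for steps of rRNA maturation such as cutting, 2 of 7 Snord genes were above 0, Snord118 and Snord13, together with 1 of 10 U3 rows. Among the spliceosomal RNAs, 2 of 4 U1 genes and U12 were above 0, while U2, U5, U6 and U11 were listed at 0, as was U7, which acts in histone mRNA processing. Names limit this view, since 20 of the 160 genes at 0 have a near copy (a short transcript with at least 95% identity over at least 95% of the length) under another name with RPKM above 0. The near copies of Rnu2-10 summed to a mean RPKM of 270.9, the copy of Snord22 to 196.6 and that of Rnu5g to 60.6.

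U8, the RNA of Snord118, is required for maturation of the large-subunit rRNAs. It had the highest mean RPKM over the 17 libraries, although in AG the median of Rnu1b1 (116.5) was above its own, and without MG 6 it had 1735 reads against 1801 for Rnu1b1. In AG its RPKM was 49.7 at the lowest, 114.8 at the median and 174.6 at the highest (n = 6). In MG the same values were 37.0, 264.6 and 2253 (n = 6), and in GC the 5 libraries stood at 352.7, 365.1, 240.8, 351.3 and 347.6. Every AG library was below every GC library, GC was narrow with a coefficient of variation of 15.4%, and MG spanned both because library MG 6 was the highest of all and MG 4 the lowest of all. The limma log2 difference was -1.67 ± 0.90 (SE) for AG against GC with adjusted p = 0.612 (Benjamini-Hochberg), and 1.24 ± 0.85 for MG against AG with adjusted p = 0.884. Without MG 6 the latter was 0.60 and without MG 4 it was 1.77. For MG against GC the log2 difference was -0.43, but edgeR on the recovered reads gave 0.94, so no direction is given. Its only near copy, Gm24208, had a mean RPKM of 0.392.

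U3, the RNA of Rnu3a, pairs with the pre-rRNA and is needed for the cuts that free the small-subunit rRNA. Rnu3a_1 had an RPKM of 15.7 to 156.2 in AG (median 40.8), 15.3 to 194.5 in MG (median 118.6), and 267.7, 333.1, 143.1, 214.0 and 321.7 in GC. All MG libraries but the 3 above 178 lay below the whole of GC, and 1 AG library, AG 2, reached above the lowest GC library. The mean in AG was 0.228 of that in GC, with a limma log2 difference of -2.46 ± 0.90 and adjusted p = 0.509, with an unadjusted p under 0.05. DESeq2 on the recovered reads gave -1.75 with adjusted p = 0.0384, the only call of any of the 11 genes by limma, edgeR or DESeq2, and edgeR gave -1.66 with adjusted p = 0.242. DESeq2 gave no p for Snord118 and Scarna17 in any comparison, and no adjusted p for Snord13 and Scarna13 in AG against GC and in MG against AG or for Snora17 in MG against AG, so these could not be called. For MG against GC the limma log2 difference was -1.55 ± 0.90 with adjusted p = 0.803, and for MG against AG 0.92 ± 0.86 with adjusted p = 0.884. U3 also made up more of the reads of the 11 genes in GC, 22.4% to 33.5%, than in MG, 7.49% to 22.3%, so that the ranges touched without overlapping, whereas AG ran from 7.43% to 30.1%.

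U13, the RNA of Snord13, assists acetylation of the small-subunit rRNA. It was the scarcest C/D box RNA, with 48 reads in 13 libraries. In AG the RPKM was 0 in 3 libraries and 2.22, 7.12 and 1.40 in the others, in MG it ran from 0 to 29.3 with a median of 7.35, and in GC it was 18.1, 5.02, 12.2, 3.54 and 12.03. Most AG libraries lay below GC, but AG 3 overlapped it. The limma log2 difference was -2.29 ± 0.73 for AG against GC (adjusted p = 0.506) and 1.82 ± 0.69 for MG against AG (adjusted p = 0.884). Both passed an unadjusted criterion (p under 0.05 and a fold over 1.5) in every fit that left out 1 library, 11 of 11 and 12 of 12. These differences rest on 0 to 12 reads a library, and the 3 AG zeros allow RPKM of up to 9.97, 7.42 and 12.6, which lie within the GC range. With edgeR on the reads the difference for AG against GC was -1.30 with adjusted p = 0.744.

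Snord104 guides a ribose methylation of the large-subunit rRNA and is the shortest of the 11 at 70 nt. Its RPKM was 27.1 to 161.8 in AG (median 74.3), 43.7 to 769.7 in MG (median 144.0), and 44.8, 242.2, 195.9, 281.0 and 250.3 in GC. The 3 groups overlapped. GC 1, the shallowest library with 5 reads, was the lowest of GC, and MG 6 was the highest of all. The log2 difference was -1.29 ± 0.89 for AG against GC with adjusted p = 0.639, and 1.22 ± 0.85 for MG against AG with adjusted p = 0.884 (limma).

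Snora17, the only gene named Snora above 0, guides pseudouridylation of rRNA. Its RPKM was 5.24, 15.8, 11.2, 5.85, 3.30 and 0 in AG libraries 1 to 6, 2.32 to 37.4 in MG (median 21.3), and 19.0, 21.7, 28.9, 29.2 and 37.9 in GC. All 6 AG libraries were below all 5 GC libraries, and 5 of 6 MG libraries, all but MG 4, were above all of AG. The log2 difference was -2.25 ± 0.77 for AG against GC (limma, adjusted p = 0.509) and 1.65 ± 0.73 for MG against AG (limma, adjusted p = 0.884). The first passed the unadjusted criterion in 11 of 11 fits that left out 1 library and the second in 4 of 12. The gene had 158 reads, and the zero in AG 6 allows an RPKM of up to 3.31. For MG against GC the log2 difference was -0.61 ± 0.77.

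Scarna17 is a C/D box RNA of the Cajal body. Its RPKM was 24.0 to 52.5 in AG (median 32.8), 21.97 to 894.3 in MG (median 48.2), and 63.4, 118.8, 57.9, 116.4 and 110.9 in GC. All AG libraries lay below all GC libraries, as did 4 of 6 MG libraries, while MG 6 stood far above the next MG library, at 77.3. The log2 difference for AG against GC was -1.32 ± 0.93 (limma, adjusted p = 0.642), and for MG against AG it was 0.96 ± 0.88, falling to 0.23 without MG 6. For MG against GC limma gave -0.36 and edgeR 1.19, so again no direction is given.

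Scarna2, which guides methylation of U2 and is the longest of the 11 at 414 nt, had an RPKM of 3.17 to 15.6 in AG (median 12.4), 5.29 to 45.1 in MG (median 25.1), and 12.1, 36.5, 25.8, 30.6 and 28.0 in GC. All AG libraries were below 4 of the 5 GC libraries, the exception being GC 1 with 8 reads. The log2 difference for AG against GC was -1.27 ± 0.70 (limma, adjusted p = 0.618). Scarna13, an H/ACA box RNA of the Cajal body, is the only 1 of the 11 inside a gene longer than 500 nt. It had 55 reads, 0.840 to 6.55 RPKM in AG, 1.11 to 4.70 in MG and 0 to 9.11 in GC, with a log2 difference of 0.28 ± 0.49 for AG against GC and -0.14 ± 0.47 for MG against AG. Without GC 4, whose zero allows an RPKM of up to 2.01, the AG against GC value was -0.16, so no direction is given. In limma it was the only gene of the 11 not lower in AG than in GC, while with edgeR after TMM scaling Rnu1b1 (0.04) and Rnu1b2 (0.38) were not lower either.

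U1 recognises the 5′ splice site, and Rnu1b1 and Rnu1b2 both encode its U1b form. Rnu1b1 had an RPKM of 78.6 to 247.3 in AG (median 116.5), 41.4 to 391.5 in MG (median 250.1), and 584.8, 219.7, 152.4, 105.8 and 128.9 in GC. Rnu1b2 had 3.12 to 39.8 in AG (median 21.6), 0 to 40.05 in MG (median 31.5) and 83.5, 15.8, 9.23, 22.3 and 9.48 in GC. The 3 groups overlapped for both genes, and their log2 differences were within 1 SE of 0 in all 3 comparisons. Although the annotated transcripts are the same, the table gave 1979 reads to Rnu1b1 and 248 to Rnu1b2, a ratio between 4.22 and 32.5 in the 16 libraries where both were above 0. How reads were divided between identical copies is not given in the sources used here, so the pair is best read as a sum, which had a median of 140.0 in AG, 288.7 in MG and 161.6 in GC. Even that sum is a small share of U1. A further 10 near copies with Gm names were above 0, led by Gm22513 (96.4% identity to Rnu1b1, RPKM 2421 to 67675) and Gm24830 (98.2%, 314.2 to 6934), and Rnu1b1 with Rnu1b2 held 0.883% to 3.27% of the summed RPKM of these U1 rows. The sum of the other copies was 5114 to 19639 in AG, 2763 to 46593 in MG and 5788 to 75021 in GC, so the groups overlapped there too.

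U12 pairs with the branch site of the minor class of introns. The RPKM of Rnu12 was 2.90 to 61.2 in AG (median 7.70), 0 to 89.8 in MG (median 45.4), and 132.8, 46.6, 0, 1.22 and 169.9 in GC. Low and high libraries occurred in all 3 groups, and log2 differences did not exceed 1 SE in size in any comparison (limma, adjusted p of 0.905 or more). The AG against GC value of -0.65 was -1.71 without GC 3 and 0.14 without GC 5, and edgeR per mapped read gave -1.88, past the unadjusted criterion with adjusted p = 0.302. The zeros in MG 3 and GC 3 allow RPKM of up to 6.22 and 5.05.

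**Figure D2:**
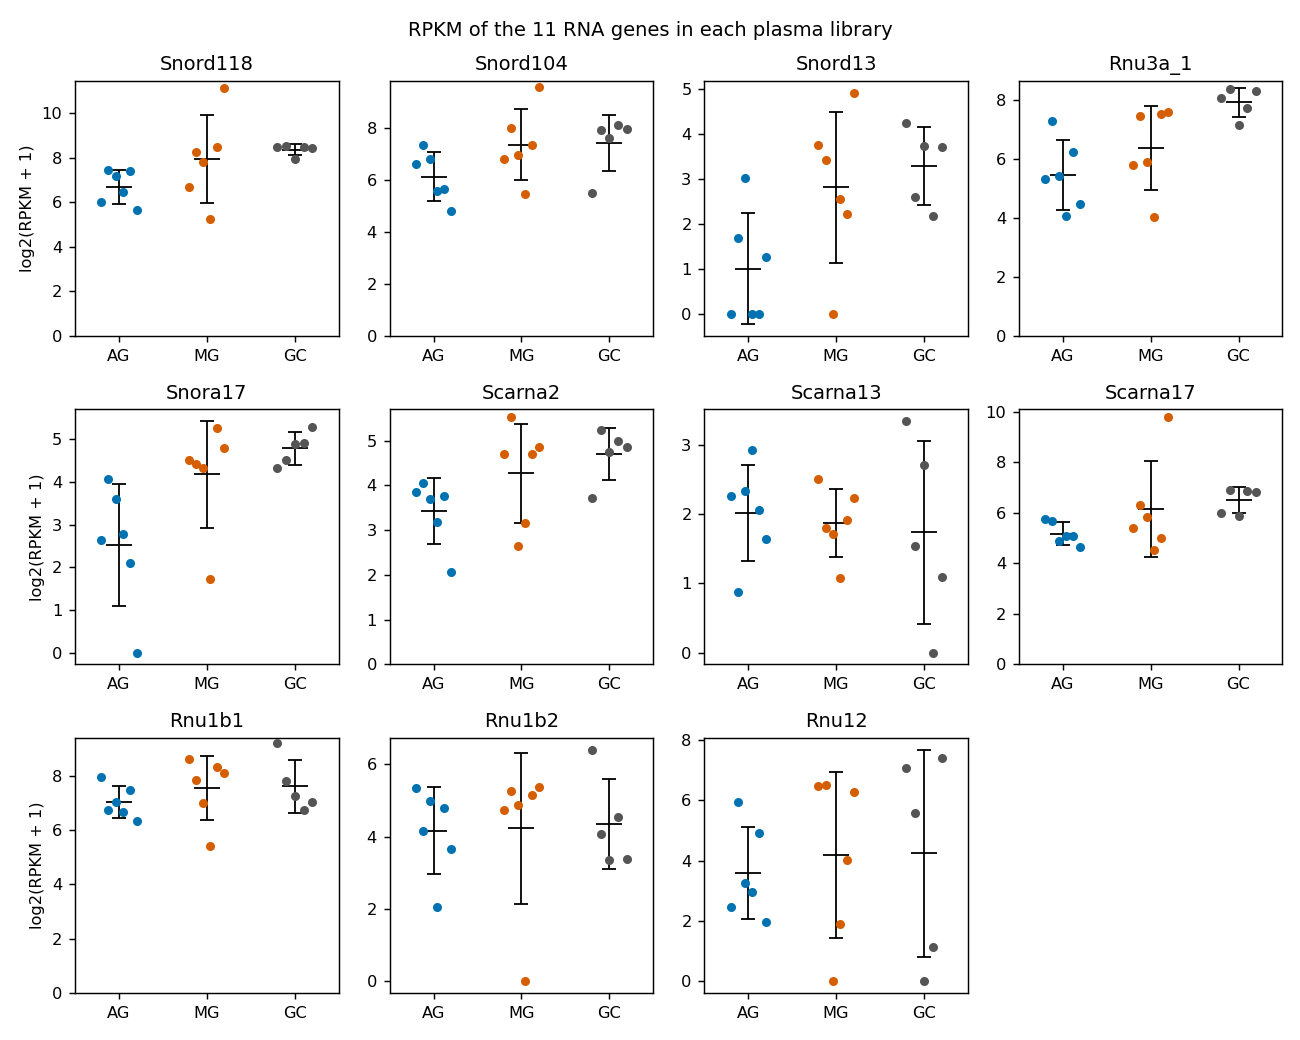
RPKM on the log2(RPKM + 1) scale (y axis) of each of the 11 genes in the AG (blue, n = 6), MG (orange, n = 6) and GC (grey, n = 5) libraries. Each point is 1 library, the horizontal bar the mean and the whisker 1 SD; AG lies below GC without overlap for Snord118, Snora17 and Scarna17, and MG 6 stands high for Snord118, Snord104 and Scarna17.

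Summed by class, the RPKM of C/D box genes was 78.1 to 338.6 in AG (mean 198.8 ± 93.8, SD, n = 6), 85.7 to 3052 in MG (800.1 ± 1118, n = 6) and 415.6 to 635.9 in GC (544.5 ± 103.7, n = 5). The H/ACA class, 1 gene, had means of 6.89 ± 5.68 in AG, 21.4 ± 11.5 in MG and 27.35 ± 7.40 in GC. Scarna sums were 50.9 ± 14.9, 212.5 ± 351.0 and 123.6 ± 34.1, and Rnu sums 238.1 ± 102.2, 416.5 ± 222.7 and 592.4 ± 305.6 in the same order. The MG means of Snord and Scarna rested on MG 6: without it they were 349.7 ± 202.4 and 69.7 ± 34.2 (n = 5), below the means of GC. The AG range ended below the GC range for Snord (338.6 against 415.6), Snora (15.8 against 19.0) and Scarna (69.7 against 84.7), and overlapped it for Rnu (339.3 against 304.7). The MG range overlapped both others in all 4 classes. As a share of the summed RPKM of all genes, the 11 genes together held 0.180% to 0.469% in AG and 0.356% to 1.10% in GC, so on that scale AG and GC overlapped.

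**Figure D3:**
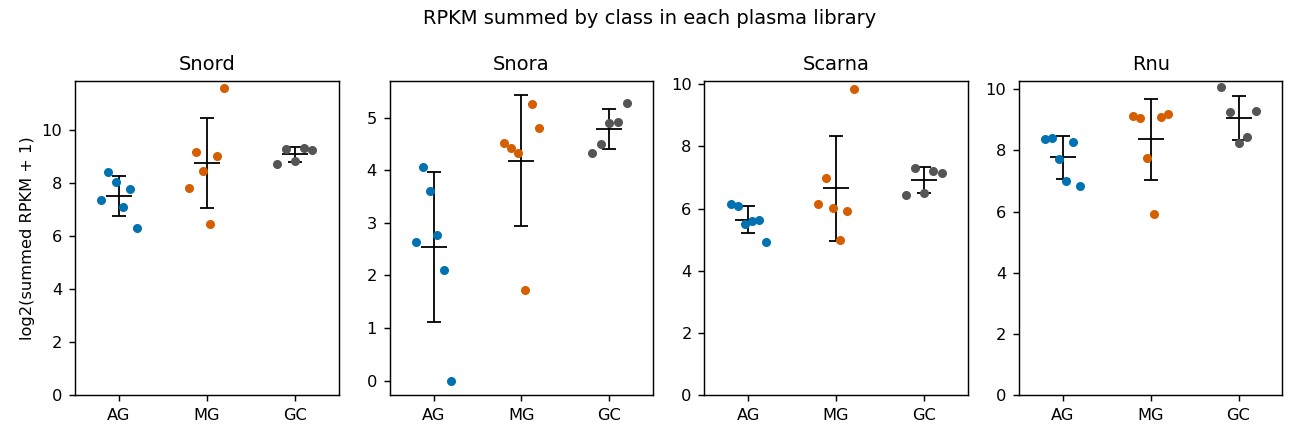
RPKM summed over the genes of each class, as log2(summed RPKM + 1) (y axis), in the AG (n = 6), MG (n = 6) and GC (n = 5) libraries; points are libraries, bars means and whiskers 1 SD. In Snord, Snora and Scarna all AG points lie below all GC points.

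As the difference of mean log2 sums, MG was above AG by 1.25 for Snord, 1.65 for Snora, 1.01 for Scarna and 0.59 for Rnu. Without MG 6 these became 0.68, 1.52, 0.37 and 0.42, and without MG 4 they became 1.71, 2.14, 1.34 and 1.08. Without AG 6 Snora was 1.14. For MG against GC the differences were -0.33, -0.61, -0.26 and -0.70, and without MG 4 those of Snord and Scarna turned to 0.13 and 0.07. Without MG 6 those of Snord and Scarna were -0.89 and -0.90. For AG against GC the differences were -1.58, -2.25, -1.27 and -1.29 in the same order, and leaving out any 1 library kept the differences between -2.56 and -1.04. The Rnu figure depended on U3: with Rnu3a_1 counted among the C/D box RNAs, the Rnu difference for AG against GC was -0.70 and the Snord difference -1.80. For MG against GC the Rnu difference was then -0.19 and the Snord difference -0.60. As shares of the 4 classes together, the AG and GC medians were 40.1% and 43.5% for Snord, 10.5% and 10.2% for Scarna and 48.1% and 43.7% for Rnu. For Snora the medians were 1.39% and 2.53%. As log2 differences of these shares, MG against AG was 0.22 for Snord and 1.01 for Snora but turned to -0.02 for Scarna and -0.44 for Rnu, and MG against GC turned to 0.10 for Snord and 0.16 for Scarna.

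All 11 genes were above 0 in at least 13 libraries and in all 3 groups, and so all entered the test on 4542 genes. None passed an adjusted p of 0.05 in limma in any comparison, and none did in edgeR. For MG against AG, 0% of all genes passed the adjusted threshold. At an unadjusted p under 0.05 with a fold over 1.5, 2 of the 11 genes were higher in MG (Snord13 and Snora17), where 0.55% of all genes tested were. No gene of the 11 had every MG library above every AG library, as 0.198% of all genes did. The count of 2 was 1 to 3 when 1 library was left out. It was 4 with edgeR (Snord118, Scarna17, Snord104 and Snord13), where 224 of 4533 genes were higher by the unadjusted criterion. With DESeq2 it was 3, where 91 of 4525 genes were. The 2 lowest adjusted p with edgeR were 0.0794 for Snord118 and 0.0839 for Scarna17. The 11 genes had a median log2 difference of 0.92 with 10 of 11 higher in MG, beside a median of 0.03 with 69.1% higher over all genes tested. Fold changes of low genes are understated on the log2(RPKM + 1) scale, so values over all genes are not those of genes of like level. With 0.1 added to RPKM in place of 1 the medians were 0.93 and 0.16. By the unadjusted criterion 2 of the 11 and 166 of 4542 genes were then higher in MG.

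For AG against GC, 0.022% of all genes passed the adjusted threshold. By the unadjusted criterion 3 of the 11 were lower in AG (Snord13, Snora17 and Rnu3a_1), where 1.96% of all genes were, and 3 had all AG libraries below all GC libraries (Snord118, Snora17 and Scarna17), where 0.418% of all genes did. Each of the first 3 genes stayed past the criterion when any 1 library was left out. On the recovered reads edgeR called Rnu3a_1, Snora17 and Snord118 by this criterion, and DESeq2 called Rnu3a_1, Snora17 and Scarna2, so that Snord13 was not called by either. Over all genes edgeR called 210 of 4533 lower in AG, and DESeq2 75 of 4525. The median log2 difference of the 11 was -1.29 with 1 of 11 higher in AG, beside -0.03 with 30.6% higher over all genes. With 0.1 added to RPKM in place of 1 the medians were -1.34 and -0.18. By the unadjusted criterion 4 of the 11 and 286 of 4542 genes were then lower in AG. For MG against GC, 0% of all genes passed the adjusted threshold, and none of the 11 passed the unadjusted criterion, by which 0.572% of all genes were called in either direction. None of the 11 separated MG from GC without overlap, as 0.176% of all genes did. With edgeR 1 gene reached an unadjusted p under 0.05 (Scarna17, higher in MG, as were 256 of 4533 genes by the unadjusted criterion). With DESeq2 1 did (Rnu3a_1, lower in MG, as were 30 of 4525). The median was -0.36 with 1 of 11 higher in MG, beside -0.01 with 43.8% higher over all genes, and edgeR turned the direction (7 of 11 higher, median 0.27, beside 0.19 over all genes). The 3 comparisons share their libraries pairwise, and the values stand side by side only.

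**Figure D4:**
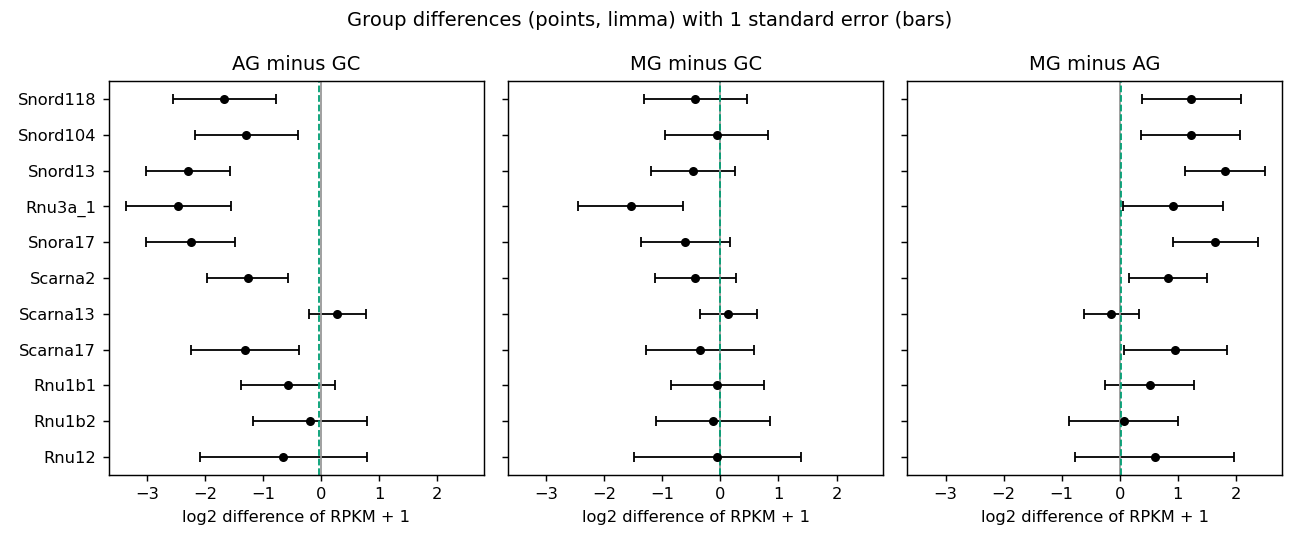
Log2 difference of RPKM + 1 (x axis) for each of the 11 genes (y axis) in the 3 comparisons, from limma over all 17 libraries. Points are estimates, bars 1 SE, the solid line 0 and the dashed green line the median over all 4542 genes; 10 of 11 points lie left of 0 in AG minus GC and 10 of 11 right of 0 in MG minus AG.

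Part of these differences moves with the scale. Per mapped read, the median of all genes in edgeR was 0.54 for MG against AG and -0.67 for AG against GC, while the 11 genes had medians of 1.25 and -1.36. After TMM scaling the medians of all genes were 0.23 and 0.0009, and those of the 11 were 0.82 with 9 higher and -0.99 with 8 lower. On both scales the median of the 11 genes was above that of all genes in MG against AG and below it in AG against GC.

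Among the 11 genes, Rnu1b1 took the most reads in AG, with a median of 34.9% of their reads, against 25.9% in MG and 17.1% in GC, and these ranges overlapped. Snord118 took 23.4%, 24.7% and 23.3% at the median. In MG 6, Snord118 held 1197 of 2175 reads, or 55.03% (exact 95% interval 52.9% to 57.1%), and Scarna17 12.8% (11.4% to 14.3%), while Rnu1b1 held 8.18% (7.07% to 9.42%). MG 6 was thus high in a few genes, Snord118, Snord104, Snord13 and Scarna17, and within the range of the other MG libraries for Snora17, Scarna2, Scarna13, Rnu1b1 and Rnu12. Its RPKM of Rnu1b2 (40.05) and Rnu3a_1 (194.5) was the highest in MG but near the next.

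**Figure D5:**
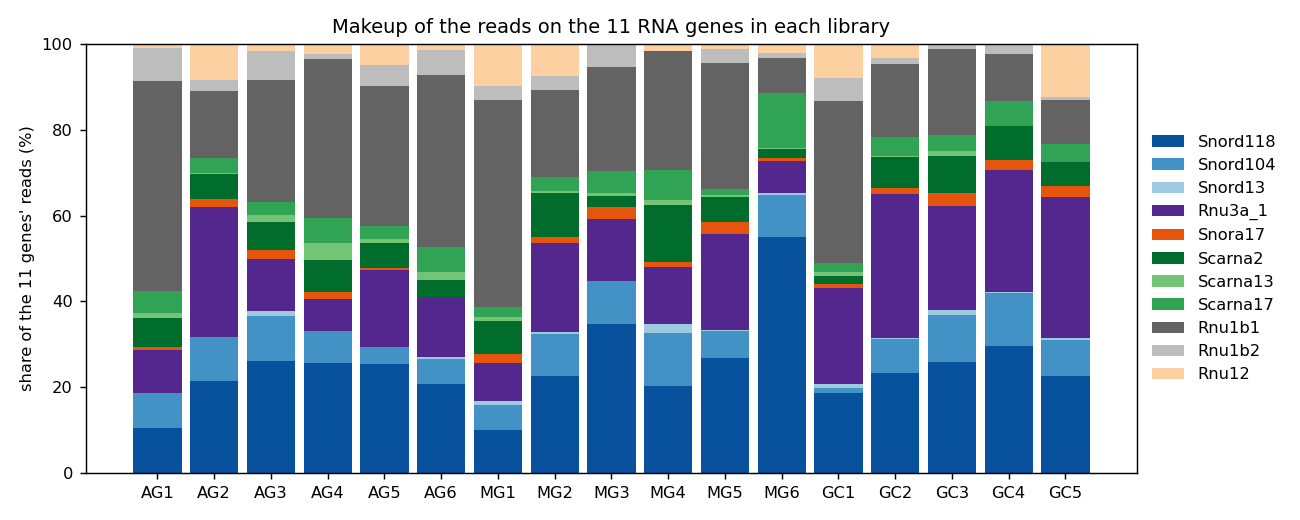
Share (%) of the reads of the 11 genes that each gene took in each library (x axis, groups AG, MG and GC with the replicate number). Snord118 (dark blue) takes 55.03% in MG6 and Rnu1b1 (dark grey) 37.8% in GC1.

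Markers of blood and other tissues were read beside these values. Red cell markers had the highest group medians of the marker lists (483.8 RPM, reads scaled to mapped reads, in AG, 340.2 in MG and 435.8 in GC), but in MG 6 liver markers (92.0) stood above red cell (90.7) and platelet markers (30.5). Of 6 liver markers all were above 0 in some library, and their summed level was 0 to 25.5 RPM in AG, 0.339 to 92.0 in MG and 1.84 to 5.01 in GC. The 92.0 was MG 6 and the 25.5 was AG 6, so that MG 6 was the highest library for liver markers and for Snord118 and Scarna17, while AG 6, second in liver markers, was the lowest AG library for both. The red cell markers were lowest in MG 6 (90.7, against 136.3 to 993.3 in AG and 152.0 to 1609 in GC). All 7 were lower in MG than in AG (median log2 difference -0.60, 1 past the unadjusted criterion) and all 7 lower in MG than in GC (median -0.51, 0 past it). The 6 platelet markers ran from 6.71 to 122.3 in AG, 20.7 to 193.7 in MG and 20.8 to 273.8 in GC, and in AG against GC all 6 were lower (median -0.75, 1 past the unadjusted criterion), as they were in MG against GC (median -0.48, 1 past it). Leukocyte markers were few (3.21 to 10.7, 3.37 to 14.2 and 3.68 to 18.2). Skeletal muscle markers had few counts over the 17 libraries (Myh4 59, Ckm 15, Acta1 13, Tnnt3 1 and Mylpf 0). Of the brain markers Mbp had 11 counts, and Snap25, Gfap, Syt1 and Meg3 were at 0 in all libraries. The part of these cell types in the results on the 11 genes was not tested.

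The mRNAs of the partner proteins were sparse as single genes. Of 59 genes for proteins of small nucleolar, Cajal body and spliceosomal particles, 44 had a value above 0 and 10 entered the test. None of the 10 passed the adjusted or the unadjusted criterion in any comparison. All 10 had a positive log2 difference in MG against AG, with a median of 0.06, beside 69.1% higher and a median of 0.03 over all genes. In AG against GC 4 were higher and 6 lower, with a median of -0.04. Summed over all 59 genes, the level was 19.97 to 57.3 RPM in AG (median 43.4), 17.45 to 119.2 in MG (median 97.2) and 62.7 to 112.2 in GC (median 80.2). Every AG library was thus below every GC library, as for the Snord, Snora and Scarna sums, and MG overlapped both. The Sm and LSm proteins, which bind the small nuclear RNAs, summed to 9.77 to 23.1 RPM in AG and 29.1 to 73.3 in GC, also without overlap. The other lists overlapped: the snoRNP proteins were at 8.75 to 33.5 in AG and 30.7 to 46.9 in GC, the snRNP-specific proteins at 0.436 to 5.19 and 0.762 to 4.43, and the Cajal body proteins at 0 to 0.583 and 0 to 0.313. How often sums over other sets of genes separate AG from GC was not counted. No test was run on these sums, and their part in the results on the 11 genes was not tested.

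Other short RNAs of structured particles were read for comparison. Of 10 such genes, Rpph1, the RNA of RNase P, had an RPKM of 208.0 to 785.4 in AG, 294.4 to 2016 in MG and 748.6 to 2377 in GC, with a log2 difference of -1.44 for AG against GC (limma, adjusted p = 0.538). It was the only 1 of the 10 to pass the unadjusted criterion, and only in that comparison. Rn7sk, the 7SK RNA that holds back transcription elongation, ran from 19.4 to 88.7 in AG and from 77.6 to 158.8 in GC, with a log2 difference of -1.66 (limma, adjusted p = 0.575). Rmrp, the RNA of RNase MRP, which acts in rRNA maturation, ran from 1.28 to 17.9 and from 12.7 to 32.4, with a log2 difference of -1.43 (limma, adjusted p = 0.577). These 3 differences were at least as large in size as the median of the 11 genes. In MG against AG they were 1.14 for Rpph1, 1.02 for Rn7sk and 1.27 for Rmrp. Terc, the telomerase RNA, which is also nuclear and of the H/ACA type, had differences of the other sign, 0.29 for AG against GC and -0.56 for MG against AG, at an RPKM of 2.06 or less. The signal recognition particle RNA Rn7s1 ran from 857.2 to 5302 in AG and from 1369 to 3945 in GC, with a log2 difference of 0.11. The list also holds Y, vault and telomerase RNAs, and medians over the 10 were -0.39 for AG against GC and 0.46 for MG against AG, against -1.29 and 0.92 for the 11 genes.

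Most of the 11 genes were detected in every library. Between 9 and 11 were above 0 in each library, with medians of 10 in AG, 11 in MG and 11 in GC. At a floor of 1 read of the shallowest library, between 6 and 11 remained, and the fewest, 6 in MG 4 and 7 in AG 6, were in the 2 deepest libraries, of 9796884 and 6859728 mapped reads. These were also the libraries with the lowest summed RPKM of the 11 genes in their groups, at 178.5 and 221.7. Their summed RPKM over all genes was the lowest of their groups as well, at 44188 and 76231. The 11 genes held 0.404% and 0.291% of it.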

How the data were processed

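Plasma cfRNA of 17 mice (6 AG, 6 MG, 5 GC) was sequenced after a small RNA library kit. The authors deposited 1 table a library with count, RPKM and TPM per gene, made from reads aligned to mm10 per the submitters' processing notes. The deposited count column was used for library totals (84657 to 277682) and markers, the RPKM deposited by the authors for the 11 genes, and the deposited TPM was not used. No batch is labelled. Members and lists were chosen with earlier results of these data known. Named genes were to be the highest by mean RPKM in each class, those of smallest p, and a few fixed RNAs, which took in all 11.

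Log2(RPKM + 1) of the 4542 genes above 0 in at least 5 libraries was fitted with limma 3.58.1 (R 4.3.3) over all 17 libraries, with Benjamini-Hochberg adjustment. Fold changes of low genes are understated on this scale. Calls were an adjusted p under 0.05, or an unadjusted p under 0.05 with a fold over 1.5. P-values measure the spread between mice. Reads were recovered from RPKM, length and implied mapped reads: 98.9% of 3417 values over 579 genes without counts were whole within 0.02, and 551 genes were whole throughout. These reads were tested with edgeR 4.0.16 and DESeq2 1.42.0 as alternatives. The sequences of 4 of the 11 genes are not reported here. Near copies were found with BLASTN 2.17.0 among GENCODE M21 transcripts. Tables were made with Python 3.11.15 and pandas 2.3.3. The alternatives edgeR per mapped read and U3 counted as Snord were chosen after seeing the data. The tests were tried on simulated data.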

Additional observations from a re-analysis of the deposited data

Results flagged for a closer look

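In groups of 4 to 10 libraries, a value whose gap to the nearest other library was a large part of the group's range was listed (Dixon's test at the 95% level). Of 42 groups tested, 10 held such a value, where chance gives about 1 in 20. MG 6 was high for Snord118 (2253 RPKM), Snord104 (769.7), Scarna17 (894.3), the Snord sum (3052) and the Scarna sum (926.3), and these sums contain the genes. GC 1, the shallowest library, was high for Rnu1b1 (584.8) and Rnu1b2 (83.5), which share 1 sequence. MG 4, the deepest library, was low for Rnu1b2 (0). GC 3 was low for Snord118 (240.8), and AG 3 was high for Snord13 (7.12). MG 6 was also the highest library for liver markers, and the part of these in its values was not tested.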

How the results depend on the processing

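Depth limits these results: a gene of the 11 rests on as few as 48 reads, and low values are steps of single reads. No call passed the adjusted threshold except Rnu3a_1 for AG against GC with DESeq2 (1). Past the unadjusted criterion, the count for MG against AG was 5 with edgeR per mapped read, where 357 of 4533 genes were higher in MG. It was 4 with edgeR after TMM (224 of 4533), 1 without a filter (21 of 13184) and 1 with only the 2 groups (24 of 4542). Without 1 library it was 1 to 3. For MG against GC it was 1 with DESeq2 (lower in MG, as were 30 of 4525) and 1 with edgeR (higher in MG, as were 256 of 4533). For AG against GC it was 5 with edgeR per mapped read, where 441 of 4533 genes were lower in AG. As shares of the 4 classes, AG against GC was -0.12 for Snord, 0.17 for Scarna and 0.17 for Rnu, and without its highest gene Rnu was -2.07. The median number of genes detected at 1 read of the shallowest library was 9 in AG and 10 in GC, and at 2 reads 10 in GC. For the single genes, 320 values kept their direction and their side of the adjusted threshold under other settings, 36 turned and 1 passed that threshold, and without 1 library 340 kept both and 34 turned (DESeq2 values without an adjusted p count as not past it). The cause was not tested in any case.

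Rnu1b1 in MG against GC was 0.16 with the library mean, 0.098 with quantiles, 0.33 with edgeR and 0.25 with DESeq2, and in AG against GC 0.039 with edgeR. Rnu1b2 in MG against AG was -0.40 with pseudocount 0.1, -0.30 with the library mean, -0.40 with quantiles, -0.077 with edgeR and -0.076 with DESeq2. Rnu1b2 in MG against GC was 0.11 with pseudocount 10, 0.31 with edgeR, 0.20 with DESeq2 and 0.026 per mapped read, and in AG against GC 0.062 with the library mean, 0.18 with quantiles, 0.38 with edgeR and 0.27 with DESeq2. In MG against GC, Snord13 was 0.46 with edgeR, 0.49 with DESeq2 and 0.035 per mapped read, Snord118 0.94 with edgeR and 0.72 per mapped read, and Scarna17 1.19 and 0.99. Snord104 there was 0.15, 0.14, 0.27, 0.31 and 0.26 with the library mean, quantiles, edgeR, DESeq2 and per mapped read. Scarna13 was -0.041 with pseudocount 10 and -0.19 per mapped read. Rnu12 was 0.13, 0.25 and 0.11 with pseudocount 0.1, the library mean and quantiles, and 0.0013 in AG against GC with pseudocount 0.1.

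Without 1 library, MG against GC ranged from -0.27 to 0.37 for Rnu1b1, -0.37 to 0.72 for Rnu1b2, -0.90 to 0.086 for Snord13, -1.07 to 0.11 for Snord118, -0.54 to 0.31 for Snord104, -0.30 to 0.54 for Scarna13 and -1.11 to 0.79 for Rnu12. AG against GC ranged from -0.45 to 0.32 for Rnu1b2, -0.16 to 0.68 for Scarna13 and -1.71 to 0.14 for Rnu12, and MG against AG from -0.35 to 0.92 for Rnu1b2 and -0.37 to 0.04 for Scarna13. The Snora sum without its highest gene holds no gene.

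Libraries of different groups share replicate numbers, but no label says that these pair the libraries, so the numbers were not taken to do so. The deviations of libraries of 1 number correlated between -0.174 and 0.388 over 16 pairs, 8 of them over 0.1. In 15 of 32 cases a library correlated best, within another group, with the library of its own number, a hint from the data that the labels do not explain, and the highest correlation between different numbers was 0.564. With the replicate number as a block, 2, 0 and 4 of the 11 genes passed the unadjusted criterion for MG against AG, MG against GC and AG against GC, and 0 passed the adjusted threshold. Over all 4542 genes, 39 were then higher in MG than in AG by that criterion and 96 lower in AG than in GC.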
